A study of Homo sapiens with 40 samples.

Results

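A2058, an established human melanoma line, was exposed once for 24 hours to the phosphoinositide 3-kinase (PI3K) inhibitor GDC0941 at a level named IC90, or to the solvent DMSO. The comparison takes the arrays whose titles name DMSO (n = 4) and those whose titles name this compound at IC90 (n = 4), which is 8 of the 40 arrays of the series. GDC0941 is pictilisib, an inhibitor of the class I PI3K isoforms, and its name is spelled GCD0941 in the sample titles. The other groups used are GDC0941 at levels named IC50 and max, and BEZ235 (dactolisib, which inhibits PI3K and the kinase mTOR) at IC90, each with 4 arrays and the same 24 hours. All groups are 1 cell line in the same medium, and each group holds 4 biological replicates. Neither molar concentrations nor the response behind the IC names is given in the sources used here, so a shared name such as IC90 does not fix a shared dose. RNA level was measured in the whole culture, where fewer cells of a kind and less RNA per cell cannot be told apart, and each p-value measures the spread between replicate samples of this single line.

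PI3K makes a membrane lipid that recruits and activates the kinase AKT downstream of growth factor receptors. Active AKT phosphorylates the FOXO transcription factors and keeps them out of the nucleus, and it activates mTOR complex 1, which drives protein and lipid synthesis and restrains autophagy and lysosome genes. In melanocytes and melanoma cells, the transcription factor MITF controls pigment genes, and melanoma lines range from a pigmented, MITF-high state to a dedifferentiated state with high AP-1, YAP and inflammatory gene expression.

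Signals are given as log2(deposited intensity + 16), a scale on which an intensity of 0 reads 4 and which understates the change of dim genes. A gene is said to rise or fall only when its limma p-value, adjusted by the Benjamini-Hochberg method over 11865 tested genes, was under 0.05. Levels of different genes come from different probes and are not compared with each other.

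The promoters below show letters searched for in gene groups whose members moved at IC90, in capitals, with 25 bases on either side. Only genes called at IC90 are shown, and some listed genes with the same letters, such as GPNMB and YAP1, were not called. The direction of BCL2L11 is not settled, as described with its group. They are RefSeq sequences of build GRCh38.p14, read 5′ to 3′ on the strand of the gene, and positions count from the first transcribed base as 0. The elements are the M-box (TCATGTG), read by MITF in pigment genes, the E-box (CACGTG), the core of the element read by the lysosomal regulator TFEB and by MYC and MITF, the FOXO element (GTAAACA), the TEAD element (GGAATG), read by the YAP partners, and the amino acid response element (TGATGCAA), read by ATF4. Each was searched on both strands, and a match is a description of the letters only.
TYR: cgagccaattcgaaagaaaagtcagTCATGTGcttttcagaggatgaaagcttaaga
GPR143: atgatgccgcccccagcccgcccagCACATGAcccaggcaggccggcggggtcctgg
CTSF: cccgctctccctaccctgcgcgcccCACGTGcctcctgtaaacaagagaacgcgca
GAA: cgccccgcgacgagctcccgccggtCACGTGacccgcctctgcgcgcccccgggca
HBP1: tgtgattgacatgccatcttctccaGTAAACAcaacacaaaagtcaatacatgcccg
BCL2L11: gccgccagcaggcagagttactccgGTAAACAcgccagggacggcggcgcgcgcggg
CCN2: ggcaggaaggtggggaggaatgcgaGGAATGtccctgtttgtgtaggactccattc
CHAC1: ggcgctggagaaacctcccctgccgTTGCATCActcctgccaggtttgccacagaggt

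The TYR window lies at chr11:89177745-89177801 on the plus strand, with its element at position -105, and the GPR143 window at chrX:9765849-9765905 on the minus strand, with the element in reverse orientation at -33. The CTSF window is chr11:66568627-66568682 (minus strand, element at -51) and the GAA window chr17:80101525-80101580 (plus strand, -31). The CTSF window also holds the FOXO letters, left in lower case, and the CCN2 window a second copy of the TEAD letters at -104, also in lower case. The HBP1 window is chr7:107168805-107168861 (plus strand, -173) and the BCL2L11 window chr2:111120666-111120722 (plus strand, -223). The CCN2 window is chr6:131951437-131951492 (minus strand, -95) and the CHAC1 window chr15:40953237-40953294 (plus strand, with the element in reverse orientation at -209). All 8 windows end before the transcript starts, so none holds UTR or coding sequence.

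The arrays of both groups were alike in quality. The ratio of 3′ to 5′ signal on the GAPDH controls ran from 1.12 to 1.17 in DMSO and from 1.16 to 1.20 at IC90, and on the ACTB controls from 1.58 to 1.96 and from 1.82 to 2.06. Replicates correlated at r = 0.994 to 0.996 within each group across genes, which are not independent replicates. A single array outside the groups compared, in the BEZ235 IC50 group, stood apart with an ACTB ratio of 27.2. It enters the main model through the shared estimate of the spread. It also counts in the mean signals by which probe sets and tested genes were chosen. Counts without this array are given as those of the 39-array fit, which kept the same probe sets and tested genes. The part of RNA quality in the results was not tested. All 8 melanoma line markers were bright: SOX10, the neural crest factor, averaged 10.67 ± 0.03 (SD, n = 4) in DMSO and 10.74 ± 0.05 at IC90, and MITF 10.74 ± 0.09 and 11.02 ± 0.05. Of 18 markers of other cell types, 17 were named on the array and 6 passed the filter on dim genes. The leukocyte and erythroid markers summed to an intensity of 8.9 to 14.3 per array in DMSO and 8.4 to 11.2 at IC90. The endothelial markers summed to 52.1 to 66.8 and 46.4 to 50.8, the epithelial markers to 45.2 to 54.3 and 55.0 to 70.2, and the hepatocyte marker ALB ran from 0.7 to 6.2 and from 4.4 to 32.4. The fibroblast markers summed to 1153.1 to 1350.5 and 1235.4 to 1453.7, nearly all of it LUM, which was not called. The fibroblast markers PDGFRA and DCN rose, by 0.76 and 0.45, and their part in the other results was not tested.

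GDC0941 at IC90 changed 2991 of the 11865 tested genes, or 25.2%, and these changes were mostly small. More genes rose (1808, 15.2%) than fell (1183, 9.97%), and the median size of a called change was 0.353 on the log2 scale. A change of 2-fold or more was reached by 37 genes that rose and 18 that fell. Over all tested genes the median change was 0.02, with quartiles of -0.112 and 0.156. The 4 values of one group lay wholly beyond the 4 of the other for 2628 of the called genes. This was counted among called genes only, with no share over all tested genes, so it adds no support to the calls. The 39-array fit called 4032 genes, of which 2367 rose. Along the first principal component of the 8 arrays, which held 57.2% of their variance, DMSO arrays lay between -14.6 and -13.51 and IC90 arrays between 12.52 and 15.19, so the groups did not overlap.

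**Figure D1:**
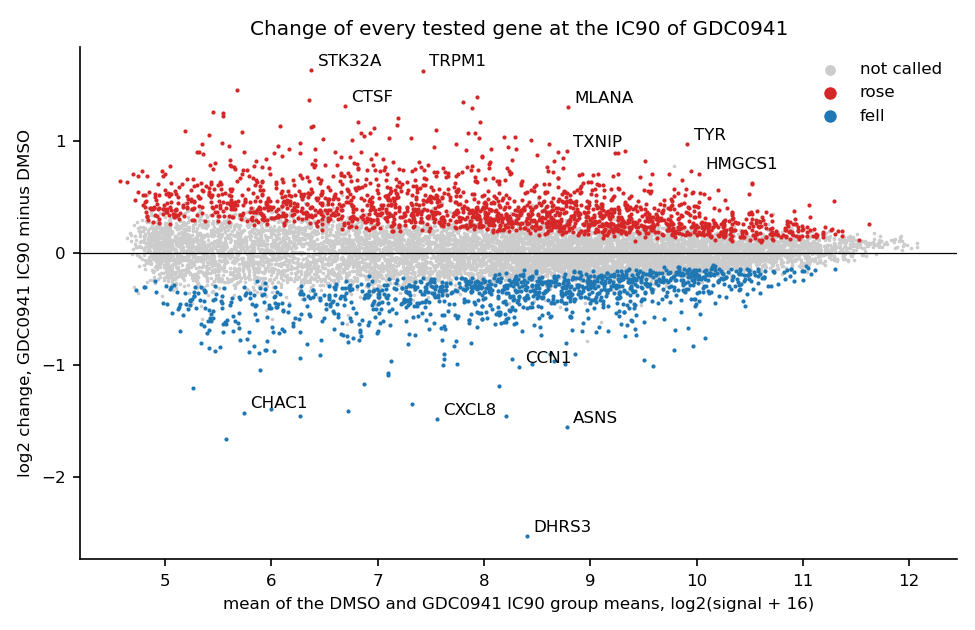
Log2 change of each of the 11865 tested genes at the IC90 of GDC0941 (vertical axis) against its mean log2 signal (horizontal axis), with the 1808 genes that rose in red, the 1183 that fell in blue and the others in grey. DHRS3, at -2.53, lies apart from all other genes.

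DHRS3 showed the largest change of any tested gene. It encodes a retinal reductase that turns retinaldehyde back into retinol and so limits retinoic acid. Its signal was 9.67, 9.63, 9.64 and 9.75 in the DMSO arrays and 7.54, 7.20, 6.63 and 7.21 at IC90, a change of -2.53 ± 0.13 (SE, limma adjusted p = 2.4e-17). As deposited, the intensities ran from 775.2 to 844.8 in DMSO and from 83.1 to 169.8 at IC90. The groups were far apart, and the treated arrays varied more among themselves (SD 0.38) than the DMSO arrays (SD 0.06). Of 11 tested genes of retinoid metabolism and its receptors, RARA (-0.43) and RDH10 (-0.41) fell with DHRS3 and RXRA (0.25) rose. Over all tested genes, 9.97% fell and 15.2% rose. CRABP2, the retinoic acid binding protein, was at 0.04 and ALDH1A3, which makes retinoic acid, at -0.08, and neither was called. RARA lost its call without any single array other than IC90 replicate 1 or DMSO replicate 3, RDH10 without IC90 replicate 1, 2 or 3 or DMSO replicate 1, and RXRA without IC90 replicate 2 or DMSO replicate 1 or 2. The 3 falls thus became 1 without DMSO replicate 1 or without IC90 replicate 2 or 3, and they were 4 in the 39-array fit.

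Next to DHRS3, the 15 largest falls included the amino acid genes ASNS and CHAC1, the chemokine CXCL8, the receptors IL7R and NGFR and the matricellular gene CCN1, all described with their groups. FDCSP, a small secreted protein, fell by 1.66, PTX3, a secreted pattern recognition protein, by 1.46, and IL32, a cytokine, by 1.21. CRISPLD2 fell by 1.46, SERPIND1, a secreted inhibitor of thrombin, by 1.41, TNFRSF12A, the receptor for the cytokine TWEAK, by 1.19 and GLIPR1 by 1.01. PTX3 stood at 8.91, 9.03, 8.88 and 8.94 in DMSO and at 7.49, 7.49, 7.37 and 7.56 at IC90, with tight replicates on both sides. POTEKP, an actin-related pseudogene, had a fall of 1.07 that rested on a single bright DMSO array, replicate 4 at 9.36 against 6.80 to 7.33 in the others. Without that array the change was -0.49 (limma adjusted p = 0.072).

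The 15 largest rises were led by STK32A, a serine/threonine kinase (1.64 ± 0.10 SE, limma adjusted p = 8.2e-15), and by TRPM1, the melanocyte ion channel called melastatin (1.63 ± 0.11, 1.0e-13). TRPM1 stood at 6.28, 6.92, 6.58 and 6.66 in DMSO and at 8.42, 8.11, 8.20 and 8.23 at IC90. STK32A was between 5.25 and 5.75 in DMSO and between 7.12 and 7.40 at IC90. SELENOP, a selenium transport protein, rose by 1.46, CRYL1, a sugar dehydrogenase, by 1.40, FAXDC2 by 1.37, P2RX7, an ATP-gated channel, by 1.35 and TRAPPC6A, a vesicle tethering subunit, by 1.26. NSG1 (1.21), OLIG1 (1.17), a glial transcription factor, and LXN (1.17), a carboxypeptidase inhibitor, complete the 15 together with CTSF, MLANA, KLHL24, BMF and DEPTOR, which belong to the groups described next.

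**Figure D2:**
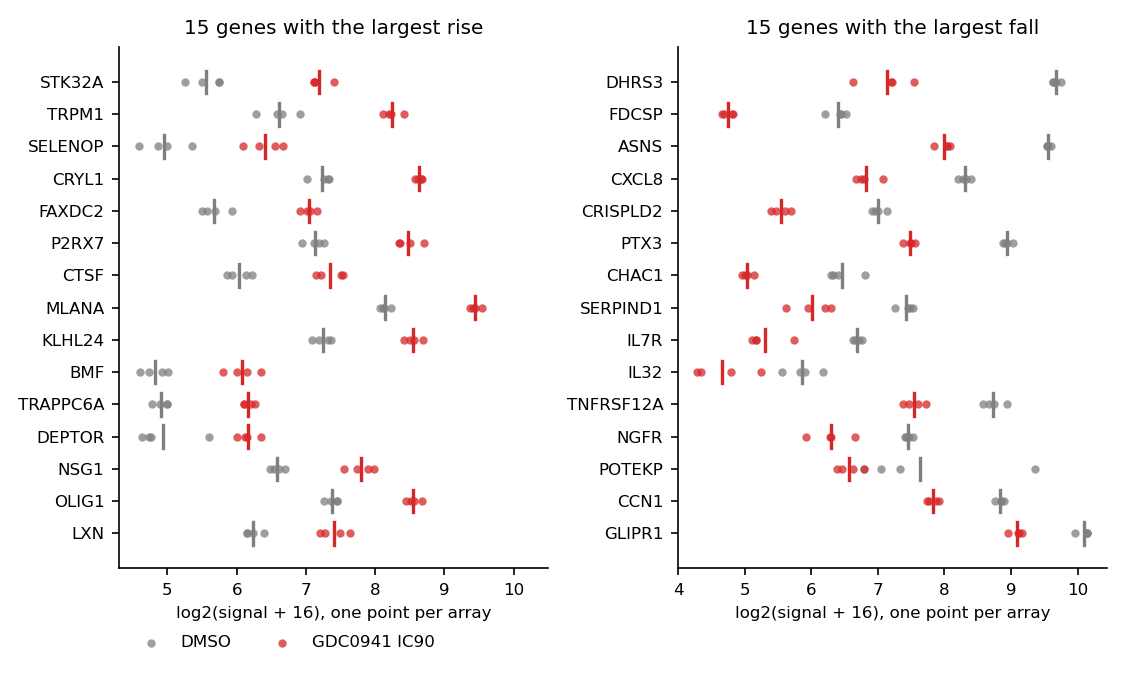
Log2(signal + 16) of the 15 genes with the largest rise (left) and the largest fall (right) at the IC90 of GDC0941, 1 point per array (grey DMSO, red GDC0941 IC90, n = 4 each) and a bar at each group mean. The genes were chosen among those whose groups do not overlap, and for POTEKP a single DMSO array at 9.36 lies far from the rest.

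Of 30 tested PI3K, AKT and mTOR core genes, 6 rose and 3 fell (10 rose and 3 fell in the 39-array fit), with a median of 0.05. That is near the 15.2% and 9.97% of all tested genes that rose and fell. DEPTOR, a subunit that inhibits mTOR complexes, had the largest change of the list: 4.75, 5.61, 4.73 and 4.63 in DMSO and 6.15, 6.34, 6.12 and 6.01 at IC90, a rise of 1.23 ± 0.15 (SE, limma adjusted p = 7.6e-08). DMSO replicate 2 was well above its fellows and still below every treated array. The regulatory subunit PIK3R1 fell by 0.33 and the catalytic subunit PIK3CG by 0.40, and PIK3R3, another regulatory subunit, rose by 0.42 on its brightest probe set but was at -0.21 on its second. AKT1 (0.01), AKT2 (-0.10), MTOR (0.16), RPTOR (-0.19) and EIF4EBP1 (-0.06) were not called. PIK3R1 lost its call without IC90 replicate 1 (-0.27) or DMSO replicate 3 (-0.29), and PIK3R3 without IC90 replicate 1 or 3 or DMSO replicate 1, 3 or 4. Without IC90 replicate 3, 3 core genes rose in place of 6.

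Receptors and adaptors that feed the pathway changed in both directions. Of 13 tested, 4 rose, among them KIT, the stem cell factor receptor (0.79), INSR, the insulin receptor (0.68), the docking protein GAB1 (0.48) and ERBB3, the neuregulin receptor (0.26). MET, the hepatocyte growth factor receptor (-0.41), and IRS1, the insulin receptor substrate (-0.37), fell. Over all tested genes, 15.2% rose and 9.97% fell. INSR stood at 6.26, 5.97, 6.17 and 5.99 in DMSO and at 6.77, 6.80, 6.81 and 6.71 at IC90. IGF1R (0.12) and IRS2 (0.14) were not called. With all probe sets of a gene averaged, in place of the brightest, GAB1 was at 0.12, ERBB3 at 0.15 and IRS1 at -0.10, and none of them was called.

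Genes listed as FOXO factors and their targets mostly rose. Of 30 tested, 19 rose and 1 fell (22 and 2 in the 39-array fit), beside 15.2% and 9.97% of all tested genes, and their median was 0.33. The factors FOXO4 (0.53) and FOXO1 (0.35) rose, while FOXO3 was at 0.18 and not called. KLHL24, a ubiquitin ligase adaptor, rose by 1.30, YPEL3, a growth suppressor, by 1.15, and CREBRF, a regulator of the CREB3 stress factors, by 1.03. KLHL24 was 7.36, 7.31, 7.19 and 7.09 in DMSO and 8.55, 8.42, 8.69 and 8.50 at IC90. Over the probe sets bright enough to pass the filter, changes ran from 0.02 to 1.30 for KLHL24 and from 0.19 to 1.15 for YPEL3. HBP1, a repressor of cell cycle genes, rose by 0.62 and CCNG2, an unconventional cyclin linked to arrest, by 0.57. CDKN1B, the cell cycle inhibitor p27, rose by 0.19, and GADD45A, a stress response gene, fell by 0.40. CDKN1B lost its call without IC90 replicate 2 (0.14) or DMSO replicate 1 (0.18), and FOXO3 gained one without IC90 replicate 2 (0.21) or DMSO replicate 3 (0.20). FOXO3 was also called in the 39-array fit (0.18, limma adjusted p = 0.0288) and with probe sets averaged (0.24, limma adjusted p = 0.0251). The sestrins SESN1 and SESN3 were both at 0.12 and not called. Of the 26 listed genes with a promoter window, 4 (15.4%) held the FOXO letters, and all 4 were called higher: FOXO4, BCL2L11, YPEL3 and HBP1. BCL2L11, though, was above 0 on only 1 of its 5 probe sets bright enough to pass the filter. The letters were in 3.41% of all 27305 promoter windows of 300 bases, and in 4.22% of those of genes that rose, 1.54% of those that fell and 1.92% of those not called.

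**Figure D3:**
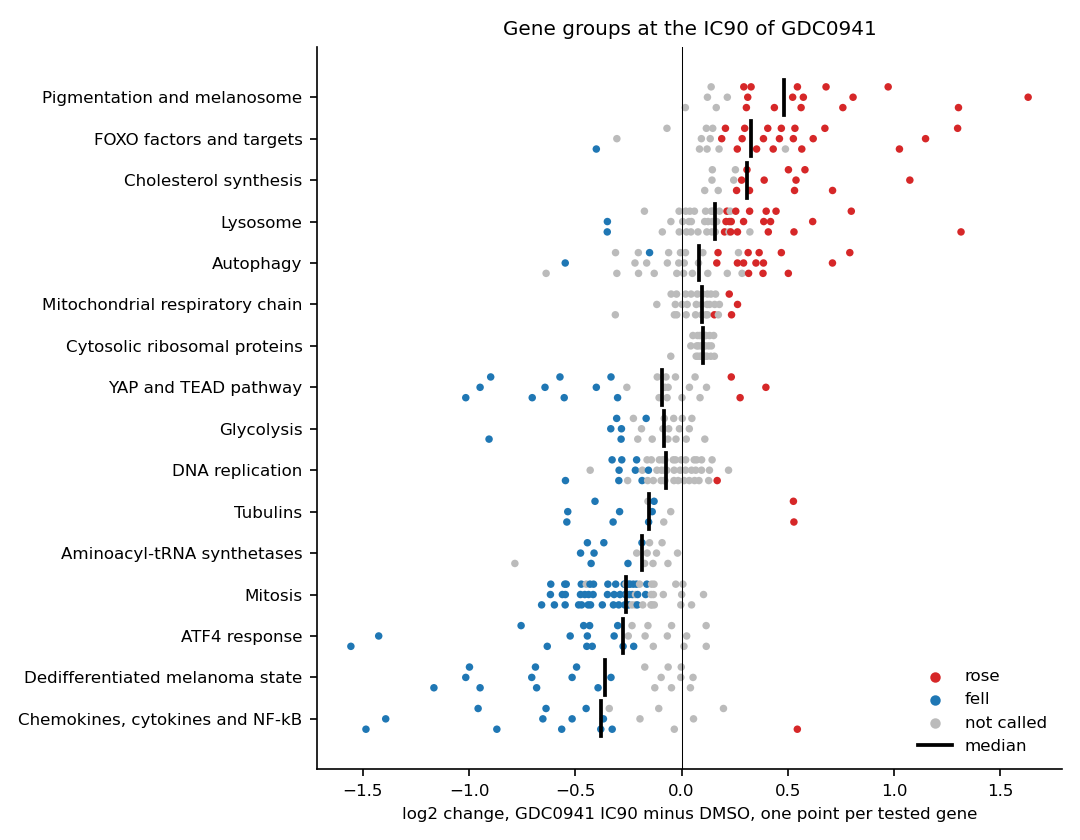
Log2 change at the IC90 of GDC0941 for every tested member of 16 gene groups, 1 point per gene (red rose, blue fell, grey not called), with a black bar at the median. Pigmentation genes have a median of 0.48 and FOXO genes of 0.33, and at the other end mitosis genes lie at -0.26, ATF4 genes at -0.28 and chemokine and NF-kB genes at -0.38.

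TXNIP, an arrestin-like protein that lowers glucose uptake, rose by 0.91 ± 0.06 (SE, limma adjusted p = 3.2e-15), from 8.31, 8.38, 8.31 and 8.31 in DMSO to 9.20, 9.29, 9.24 and 9.21 at IC90. The replicates were so close that the gap was many times their spread. Of the 7 tested genes of the TXNIP and arrestin-domain group, 3 rose, beside 15.2% of all tested genes. The others that rose were ARRDC2 (0.28) and MLXIP (0.23), and ARRDC3 (0.15) and ARRDC4 (-0.02) were not called. ARRDC2 was called in no fit that left out an array other than DMSO replicate 4, and MLXIP was not called without IC90 replicate 3 or 4 or DMSO replicate 2 or 4, so that only TXNIP rose without IC90 replicate 3 or 4.

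Among genes of the BCL2 family, which set the threshold for apoptosis, 3 BH3-only genes, whose products promote cell death, were called higher. For 1 of them, BCL2L11, the probe sets disagreed in sign. BMF stood at 4.60, 4.92, 5.01 and 4.74 in DMSO and at 5.80, 6.15, 6.35 and 6.01 at IC90, a rise of 1.26 ± 0.12 (SE, limma adjusted p = 3.2e-10). HRK rose by 0.90 and BCL2L11, which encodes BIM, by 0.41. The BH3-only gene PMAIP1, which encodes NOXA, fell by 0.42. Of the survival genes, BCL2A1 rose by 0.41, MCL1 fell by 0.17 and BCL2L2 by 0.20, while BCL2 (0.15) and BCL2L1 (-0.24) were not called. The effector BAX rose by 0.35. In all, 5 of 15 rose and 3 fell, beside 15.2% and 9.97% of all tested genes. BCL2L11 was at 0.24 and no longer called without DMSO replicate 4, and with its probe sets averaged it was at -0.09. Of its 5 probe sets bright enough to pass the filter only 1 was above 0, with a range of -0.32 to 0.41. The direction of BCL2L11 is thus not settled. MCL1 lost its call without IC90 replicate 2 or 3 or any DMSO array, BCL2L2 without IC90 replicate 4 (-0.16), and BCL2L1 gained one without DMSO replicate 1 (-0.37).

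Most genes of the pigment cell program rose. Of 20 tested genes of pigmentation and the melanosome, 15 rose, beside 15.2% of all tested genes, and the other 5 were not called (17 rose in the 39-array fit), and all 20 changes were above 0, with a median of 0.48. MLANA, the melanosome antigen MART-1, was 8.07, 8.12, 8.12 and 8.23 in DMSO and 9.44, 9.37, 9.41 and 9.54 at IC90, a rise of 1.30 ± 0.07 (SE, limma adjusted p = 2.4e-17). TYR, the rate-limiting enzyme of melanin synthesis, was 9.50, 9.46, 9.44 and 9.31 in DMSO and 10.50, 10.50, 10.25 and 10.35 at IC90, a rise of 0.97 ± 0.07 (limma adjusted p = 2.4e-13). Both genes were separated by a gap several times the replicate spread. OCA2, a melanosomal transporter, rose by 0.81, MLPH, which links melanosomes to their motor, by 0.76, GPR143, a melanosomal receptor, by 0.57 and PMEL, the fibril protein of the melanosome, by 0.55. TYRP1 rose by 0.33, and MC1R (0.12), the melanocortin receptor, and GPNMB (0.14) were not called. The 39-array fit did call GPNMB at 0.14 (limma adjusted p = 0.0416). The M-box letters were in the promoter windows of 4 of 16 listed genes, TYR, TYRP1, GPR143 and GPNMB, against 2.99% of all windows. They were in 2.04% of the windows of genes that rose, 0.719% of those that fell and 1.72% of those not called.

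Of 13 tested transcription factors of melanocytes and the neural crest, 4 rose, beside 15.2% of all tested genes, and the others were not called. IRF4, a pigmentation factor, rose by 0.66, SNAI2 by 0.52, MITF by 0.28 and SOX5 by 0.27. MITF was 10.65, 10.68, 10.86 and 10.75 in DMSO and 10.99, 11.08, 11.03 and 10.97 at IC90, so its groups did not overlap although the change was small (limma adjusted p = 1.8e-06). Of the 3 MITF probe sets bright enough to pass the filter, 2 were above 0, with a range of -0.03 to 0.42. With probe sets averaged SOX5 was at 0.16 and not called. SOX10 (0.08), PAX3 (0.03) and TFAP2A (0.04) were not called.

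Genes of the dedifferentiated melanoma state moved the other way. Of 20 tested, 11 fell, beside 9.97% of all tested genes, and the other 9 were not called, with a median of -0.36, and the 39-array fit also counted 11 falls. Over the 16 members above the 60th percentile of mean signal the median was -0.15, and with no filter on dim genes it was -0.22. NGFR, the nerve growth factor receptor CD271, was 7.53, 7.41, 7.42 and 7.47 in DMSO and 6.66, 6.28, 5.92 and 6.30 at IC90, a change of -1.17 ± 0.14 (SE, limma adjusted p = 2.2e-08). LOXL2, a collagen-modifying oxidase, fell by 1.00, JUN by 0.71 and the matrix proteins THBS1 by 0.69 and TGFBI by 0.68. AXL, a receptor kinase that marks this state, was at -0.06, and VIM (0.04), FN1 (-0.10) and CDH2 (-0.05) were not called. With probe sets averaged, AXL was called at -0.21 (limma adjusted p = 0.00492) and CDH2 at -0.13 (limma adjusted p = 0.0135). The group shares CCN1, CCN2 and NT5E with the YAP and TEAD genes, JUN and FOSL1 with the immediate early genes and IL6 with the cytokines.

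YAP and TEAD genes split. Of 26 tested, 10 fell and 3 rose, beside 9.97% and 15.2% of all tested genes, with a median of -0.09 that was -0.16 with probe sets averaged. The secreted matricellular proteins CCN1 and CCN2, long-used YAP targets, fell by 1.02 and 0.95, MYOF, a membrane repair protein, by 0.90, IGFBP3 by 0.70 and AMOTL2, a scaffold that binds YAP, by 0.64. CCN1 was 8.89, 8.84, 8.76 and 8.86 in DMSO and 7.87, 7.74, 7.91 and 7.76 at IC90. YAP1 (0.06) and TEAD1 (-0.07) were not called, while WWTR1 (0.23), the YAP paralogue TAZ, TEAD3 (0.28) and FOXF2 (0.40) rose. Those 3 rises became 1 or fewer when a single array was left out in 7 of 8 cases, the exception being DMSO replicate 3, and with probe sets averaged WWTR1 was at -0.01 and TEAD1 was called at -0.19. The TEAD letters stood in 6 of 18 listed promoter windows (33.3%), in 3836 of all 27305 windows and in 10.8% of those of tested genes, and the CCN2 promoter held them 3 times. Of the 6 listed genes only 2 were called, in opposite directions: CCN2 fell and FOXF2 rose. The letters were in 11.9% of the windows of genes that rose, 12.1% of those that fell and 10.4% of those not called.

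Inflammatory genes fell. Of 19 tested chemokine, cytokine and NF-kB genes, 12 fell and 1 rose (12 and 2 in the 39-array fit, 2 up also without DMSO replicate 4), beside the 9.97% and 15.2% of all tested genes. Their median was -0.38, and -0.58 with a pseudocount of 1 and -0.11 over the 5 members above the 60th percentile of mean signal. CXCL8, the neutrophil chemokine IL-8, was 8.28, 8.20, 8.39 and 8.33 in DMSO and 6.79, 6.74, 6.67 and 7.07 at IC90, a change of -1.49 ± 0.19 (SE, limma adjusted p = 1.9e-07). IL7R, the interleukin 7 receptor, fell by 1.39, CXCL1 by 0.96, the cytokine LIF by 0.87, ICAM1, an adhesion molecule, by 0.64, CCL2 by 0.56 and IL6 by 0.52. IL7R was 6.71, 6.77, 6.63 and 6.65 in DMSO and 5.17, 5.74, 5.11 and 5.17 at IC90, with replicate 2 the highest treated array. The member that rose was TNFAIP3, the NF-kB inhibitor A20 (0.55). NFKBIA (0.06) and NFKB1 (-0.11) were not called.

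Immediate early genes showed no common direction, with 4 of 17 up and 4 down, beside 15.2% and 9.97% of all tested genes. JUN (-0.71), KLF4 (-0.55), ATF3 (-0.45) and FOSL1 (-0.39) fell, and NR4A2 (0.81), NR4A3 (0.51), EGR1 (0.32) and KLF6 (0.29) rose. The AP-1 letters TGACTCA were in 1 of 13 listed promoter windows, of a gene that was not called, and in 4.92% of all windows. Genes that rose held them in 2.59% of windows, those that fell in 4.41% and those not called in 2.71%. Of 21 tested genes of MAPK feedback and output, 3 fell (EPHA2 by 0.58, FOSL1 by 0.39 and CCND1, cyclin D1, by 0.34), and MYC (0.77) and EGR1 rose, so the share called was near the 25.2% of all tested genes. DUSP6 (-0.12), SPRY2 (-0.09) and SPRY4 (0.22), which report ERK activity in melanoma, were not called. MYC lay between 6.93 and 7.10 in the 4 DMSO arrays and between 7.77 and 7.80 in the 4 at IC90, and its antagonist MXI1 rose by 0.30. CCND1 lost its call without IC90 replicate 1 (-0.30) or DMSO replicate 3 (-0.27). In the 39-array fit, 7 of the MAPK genes rose in place of 2, and SPRY4 was called at 0.22 (limma adjusted p = 0.00432). SPRY4 was also called at 0.22 with only the groups compared (limma adjusted p = 0.00694) and with quantile normalization (limma adjusted p = 0.046).

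Genes of the ATF4 response, which supplies cells with amino acids under stress, fell. Of 25 tested, 14 fell, beside 9.97% of all tested genes, and the other 11 were not called (18 fell and 1 rose in the 39-array fit), with a median of -0.28. ASNS, asparagine synthetase, was 9.53, 9.56, 9.53 and 9.60 in DMSO and 8.04, 8.09, 7.84 and 8.03 at IC90, a change of -1.56 ± 0.10 (SE, limma adjusted p = 4.1e-14). CHAC1, which degrades glutathione, was 6.33, 6.80, 6.30 and 6.39 in DMSO and between 4.96 and 5.13 at IC90 (-1.43). SLC7A11, the cystine transporter, fell by 0.76, STC2 by 0.63, SLC1A5, a glutamine transporter, by 0.52 and DDIT3, which encodes CHOP, by 0.46. ATF4 itself was at -0.07, and DDIT4, which encodes the mTOR inhibitor REDD1, at 0.01, and neither was called. With quantile normalization ATF4 was called at -0.12 (limma adjusted p = 0.0181). The amino acid response letters were in 1 of 23 listed promoter windows, that of CHAC1 (4.35%), and in 0.923% of all windows. They were in 0.545% of the windows of genes that rose, 1.13% of those that fell and 0.368% of those not called.

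Related amino acid genes also fell in part. Of 17 tested aminoacyl-tRNA synthetases, which charge tRNAs, 7 fell, beside that same 9.97%, and all 17 changes were below 0, with a median of -0.19. CARS1 (-0.48), YARS1 (-0.44), SARS1 (-0.43), WARS1 (-0.41) and GARS1 (-0.37) had the largest called falls. RARS1 had a larger difference (-0.78) but its DMSO arrays ran from 8.52 to 10.05, and it was not called with all arrays, though it was at -1.06 (limma adjusted p = 0.0245) without DMSO replicate 3. Of 9 genes of serine and one-carbon metabolism, MTHFD2 (-0.52), PSAT1 (-0.38) and PHGDH (-0.26) fell.

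Cholesterol genes rose. Of 17 tested enzymes of cholesterol synthesis, 11 rose, beside 15.2% of all tested genes, and the other 6 were not called (13 rose in the 39-array fit). All 17 changes were above 0, with a median of 0.31. TM7SF2, a sterol reductase, rose by 1.07, HMGCS1, which makes HMG-CoA, by 0.71, SQLE, squalene epoxidase, by 0.58, HSD17B7 by 0.54, MSMO1 by 0.53 and LSS, lanosterol synthase, by 0.50. HMGCS1 was 9.59, 9.76, 9.77 and 9.57 in DMSO and 10.36, 10.40, 10.44 and 10.33 at IC90 (0.71 ± 0.05 SE, limma adjusted p = 8.5e-13). Of 11 tested genes of cholesterol control, uptake and export, 5 rose: SREBF2, the master factor of the pathway (0.82), MYLIP, which degrades the LDL receptor (0.51), INSIG1, an SREBP anchor (0.36), STARD4 (0.32) and NPC2 (0.26). No promoter window of the 15 synthesis genes searched held the sterol element core CACCCCAC, which was in 2.72% of all windows. It was in 2.32% of the windows of genes that rose, 3.39% of those that fell and 2.25% of those not called. Fatty acid genes were mixed, with 5 of 18 up and 2 down, beside 15.2% and 9.97% of all tested genes. ACSS2 and LPIN1 rose by 0.54 each and SCD, the stearoyl-CoA desaturase, by 0.32, ME1, malic enzyme, fell by 0.68, and FASN (0.03) and SREBF1 (-0.06) were not called.

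Lysosome and autophagy genes rose in part. Of 49 tested lysosome genes, 19 rose and 2 fell (26 and 2 in the 39-array fit), beside 15.2% and 9.97% of all tested genes, with a median of 0.16. The hydrolases account for 14 of the rises. CTSF, a cysteine cathepsin, was 5.94, 5.85, 6.14 and 6.22 in DMSO and 7.53, 7.15, 7.51 and 7.22 at IC90 (1.32 ± 0.15 SE, limma adjusted p = 1.0e-08). CTSO rose by 0.80, CTSK by 0.62 and GAA, the acid glucosidase, by 0.53, while CTSL and GLA fell by 0.35 each. Of the 12 subunits of the proton pump, 3 rose. The E-box letters, a palindrome counted once, were in 11 of 32 listed windows (34.4%), 6 of them of called genes, against 7.43% of all windows and 10.5% of those of tested genes. They were in 12.8% of the windows of genes that rose, 9.55% of those that fell and 10.2% of those not called. Of 39 tested autophagy genes, 14 rose and 2 fell, with a median of 0.08 that was 0.04 without IC90 replicate 3 and 0.02 with probe sets averaged. MAP1LC3A (0.79), TP53INP1 (0.71) and ATG14 (0.47) rose, and MAP1LC3B (0.12), SQSTM1 (-0.01), ULK1 (0.01) and BECN1 (-0.01) were not called. The 39-array fit did call MAP1LC3B at 0.12 (limma adjusted p = 0.0143). The 2 falls, BNIP3 (-0.55) and ATG3 (-0.15), were 5 without IC90 replicate 4 and 6 in the 39-array fit, and that of ATG3 was lost without IC90 replicate 2 (-0.13) or DMSO replicate 4 (-0.12).

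Mitosis genes fell broadly but by little. Of 65 tested, 43 fell, beside 9.97% of all tested genes, and the other 22 were not called, with a median of -0.26, and 51 fell in the 39-array fit. KIF18A, a spindle motor, was 8.24, 8.29, 8.31 and 8.21 in DMSO and 7.73, 7.56, 7.50 and 7.62 at IC90 (-0.66 ± 0.06 SE, limma adjusted p = 3.1e-10). CENPE and CDCA3 fell by 0.62 each, NCAPH, a condensin subunit, by 0.60, BUB1, a checkpoint kinase, by 0.56, and PLK1, the mitotic kinase, by 0.55. FOXM1 (-0.03), TOP2A (-0.13) and AURKB (-0.14) were not called. The DNA replication list shifted less, with 9 of 50 down and 1 up and a median of -0.07: GINS4 fell by 0.55 and POLA2 by 0.33, while PCNA was at 0.06 and MCM5 at 0.22, neither called. The single rise was lost without IC90 replicate 1 or 2 or DMSO replicate 2 or 3, while 2 rose without DMSO replicate 1, 3 with probe sets averaged and 4 in the 39-array fit. Of 22 genes of G1 to S control, 4 fell and 3 rose: SKP2, which marks p27 for degradation, fell by 0.48 and CDC25A by 0.42, and RBL2 (0.43), CDKN1C (0.38) and CDKN1B (0.19) rose. The call of RBL2 was lost without DMSO replicate 4 (0.37) and that of CDKN1B without IC90 replicate 2 or DMSO replicate 1. With probe sets averaged SKP2 was at -0.14 and POLA2 at -0.08, neither called. Without DMSO replicate 2, TOP2A was called at -0.16. The 39-array fit called TOP2A at -0.13 (limma adjusted p = 0.031) and MCM5 at 0.22 (limma adjusted p = 0.0406). TOP2A was also called with probe sets averaged (-0.14) and with quantile normalization (-0.15). The 4 G1 to S falls became 2 without IC90 replicate 1 or DMSO replicate 3.

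Tubulins, which form the spindle and the rest of the microtubules, divided by isotype. Of 13 tested, 8 fell and 2 rose, beside 9.97% and 15.2% of all tested genes. TUBA4A and TUBE1 fell by 0.54 each, TUBB6 by 0.41 and TUBB2A by 0.32, and TUBA1A and TUBB4A rose by 0.53 each. TUBA1A was 9.70, 9.82, 9.85 and 9.85 in DMSO and 10.32, 10.42, 10.33 and 10.26 at IC90. Near-identical tubulin genes can share probe signal, so values of single isotypes are uncertain.

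Some genes of glucose use and of the hypoxia response fell. SLC2A1, the glucose transporter GLUT1, was 9.08, 9.10, 9.03 and 9.09 in DMSO and 8.11, 7.98, 8.30 and 8.27 at IC90 (-0.91 ± 0.14 SE, limma adjusted p = 3.2e-06). Of 22 tested glycolysis genes, 6 fell, beside 9.97% of all tested genes, and 16 were not called, the falls including PDK1 (-0.33), HK1 (-0.31) and HK2 (-0.28), and GAPDH (0.02), LDHA (-0.06) and PKM (-0.03) were not called. PKM was called at -0.33 (limma adjusted p = 0.00494) with probe sets averaged and at -0.09 with quantile normalization, which also called LDHA (-0.13). The 6 falls became 3 without DMSO replicate 1 or 4. PDK1 lost its call without IC90 replicate 1 or 2 or DMSO replicate 1, 3 or 4, HK1 without IC90 replicate 4 or DMSO replicate 1 or 4, and HK2 was called in the other direction (0.25) with its probe sets averaged, so the direction of HK2 is not settled. Of 13 hypoxia genes, VEGFA, the angiogenic factor, fell by 0.97, P4HA2 by 0.70, BNIP3 by 0.55 and P4HA1 by 0.39, while MXI1 and BNIP3L rose, and HIF1A (-0.07) and NDRG1 (0.10) were not called.

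Groups of the ribosome and of protein quality control differed, and each is read beside the 15.2% of all tested genes that rose and the 9.97% that fell. Of 28 tested cytosolic ribosomal proteins, limma called 0, with 3 above DMSO at an unadjusted p under 0.05 and a median of 0.10, which was 0.02 after quantile normalization. The 39-array fit called 1, and 3 rose without DMSO replicate 3. Of 40 ribosome biogenesis genes, 11 fell and NOP16 rose by 0.21, a call lost without IC90 replicate 2 or 3 or DMSO replicate 2 (18 fell in the 39-array fit), among the falls PNO1 (-0.51), TCOF1 (-0.42) and FTSJ3 (-0.35). Of 20 translation initiation genes 3 fell and 2 rose, 1 of them without IC90 replicate 2 or DMSO replicate 1 or 2, and of 27 proteasome subunits 4 fell, including PSMD11 (-0.46) and PSMD12 (-0.42). The proteasome falls numbered 2 without IC90 replicate 4 or DMSO replicate 1, 3 or 4, and 7 in the 39-array fit. Of 21 chaperone and unfolded protein response genes, 5 fell, with XBP1 at -0.45, and DNAJB9 rose by 0.33, while HSPA5, the chaperone BiP, was at -0.12. With probe sets averaged XBP1 was at -0.16 and DNAJB9 at 0.23, neither called, and HSPA5 was called at -0.15. The 39-array fit also called HSPA5, at -0.12 (limma adjusted p = 0.0227), as did quantile normalization (-0.17). Of 32 respiratory chain subunits, 4 rose, each by at most 0.26, and 7 rose without DMSO replicate 3 and also in the 39-array fit.

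The remaining groups had calls in both directions and are read beside the 15.2% up and 9.97% down of all tested genes, which the interferon, TGF-beta and p53 groups came near. Of 35 interferon-stimulated genes, 6 rose and 3 fell (13 and 4 in the 39-array fit), with RSAD2 (0.57) up and GBP1 (-0.68) and OASL (-0.46) down. Of 20 antigen presentation genes, 5 rose, led by NLRC5, the activator of class I genes (0.58), and HLA-DMA (0.52), and TAP2 fell by 0.38. The 5 rises became 3 without IC90 replicate 2 or DMSO replicate 4, and 8 in the 39-array fit. Of 37 matrix and adhesion genes, 7 rose and 8 fell: A2M, a secreted protease inhibitor, rose by 1.05, the integrin subunits ITGA9 by 0.66 and ITGA10 by 0.65, and COL3A1 by 0.63, whereas the laminin LAMB3 fell by 0.69 and ITGB8 by 0.64. The bright probe sets of ITGA9 ran from 0.05 to 0.66. Of 21 TGF-beta and SMAD genes, 4 rose, led by ID2 (0.74) and ID4 (0.40), and TGFBI, SMAD3 (-0.30) and TGFBR2 (-0.29) fell, while 5 fell in the 39-array fit. Of 21 p53 target genes, 3 rose and 3 fell, with TP53INP1 (0.71) and PMAIP1 (-0.42) the largest, and CDKN1A, which encodes p21, was at 0.21 and not called. Of 7 clustered histone genes, 2 rose. That count was 0 without IC90 replicate 1 or DMSO replicate 1 or 2, and 1 without IC90 replicate 2 or 4 or DMSO replicate 4.

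The IC90 level was next set against the other levels of the same compound. From IC50 to IC90 of GDC0941, 262 genes differed (2.21%), 161 higher (1.36%) and 101 lower (0.851%) at IC90, and only DHRS3 differed by 2-fold or more. The count was 735 in the 39-array fit, with 399 higher and 336 lower, and it fell to 162 or 158 without IC90 replicate 1 or 4 and to 145 or 152 without IC50 replicate 2 or 4. The higher genes then numbered 91, 91, 88 and 81, and the lower ones 65, 67 and 57 without IC90 replicate 3, IC90 replicate 4 and IC50 replicate 2. DHRS3 was 8.96, 9.13, 9.02 and 9.01 at IC50, so most of its fall lay between IC50 and IC90 (-1.89 ± 0.13 SE, limma adjusted p = 7.5e-13). TXNIP was 8.58, 8.56, 8.60 and 8.47 at IC50 and higher by 0.68 at IC90 (limma adjusted p = 5.4e-11). ZNF469 (0.66), REPS2 (0.65), MTURN (0.65), DEPTOR (0.62) and BMF (0.58) were also higher at IC90. FYB1 (-0.70), the glycolytic enzyme ALDOC (-0.66), FBXL13 (-0.62), CHAC1 (-0.61) and ABCB5, a transporter (-0.61), were lower, although the bright probe sets of ABCB5 disagreed in sign against DMSO. DEPTOR lost this call without IC90 replicate 1 (0.62) or 2 (0.55) or IC50 replicate 1 (0.56) or 4 (0.59), and ABCB5 without IC90 replicate 4 (-0.54) or IC50 replicate 2 (-0.49). Mitosis genes held 8 that were lower at IC90 than at IC50 of 65 tested, BUB1 and PLK1 among them.

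From IC90 to max, 1248 genes differed (10.5%), 644 higher (5.43%) and 604 lower (5.09%) at max, and 2199 in the 39-array fit, 1172 higher and 1027 lower. Without IC90 replicate 4 the count was 807 (405 higher, 402 lower), without IC90 replicate 1 the lower genes numbered 399, and without max replicate 1 the higher genes numbered 424. CCN1 and CCN2 differed most upward. At IC50, CCN1 was 7.60, 7.66, 7.80 and 7.88, near its IC90 values, and at max it was 9.09, 9.14, 8.87 and 9.40, higher than at IC90 by 1.30 ± 0.12 (SE, limma adjusted p = 1.6e-09). CCN2 was 8.31, 8.45, 8.32 and 8.50 at max, higher than at IC90 by 1.24 ± 0.13 (limma adjusted p = 1.6e-08). Set against the same DMSO arrays, CCN1 differed by -1.10, -1.02 and 0.29 at IC50, IC90 and max and CCN2 by -1.17, -0.95 and 0.29, so the fall seen at IC90 was not present at max. SLITRK6 (0.96), BMF (0.95), HDAC9 (0.94) and DKK1, a WNT antagonist (0.85), were also higher at max than at IC90. KCNG4, a potassium channel subunit, was 7.51, 7.46, 7.41 and 7.41 at IC50 and 5.87, 5.80, 5.84 and 5.72 at max, lower than at IC90 by 1.07 on the log2 scale in the mean (-1.07 ± 0.10 SE, limma adjusted p = 1.5e-09). ENPP2 (-1.04), MAMDC2 (-0.99), VCAN (-0.98), MFSD2A (-0.97) and ADAM19 (-0.91) were lower at max as well.

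**Figure D4:**
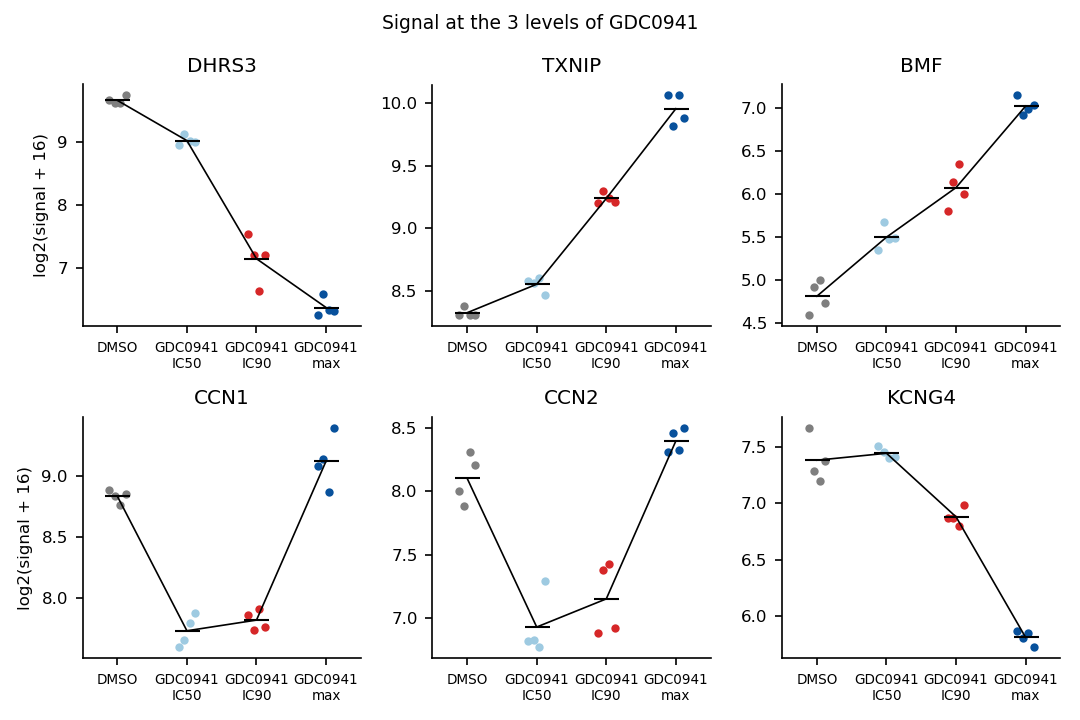
Log2(signal + 16) of 6 genes in DMSO and at the IC50, IC90 and max levels of GDC0941, 1 point per array (n = 4 each), with a line through the group means. DHRS3 falls and TXNIP and BMF rise in steps, CCN1 and CCN2 are low at IC50 and IC90 and back at or above DMSO at max, and KCNG4 drops mainly from IC90 to max.

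Gene groups moved between levels to different degrees, with medians against the same DMSO arrays given here as levels only. Over all tested genes, 5.43% were higher and 5.09% lower at max than at IC90. Mitosis genes had medians of -0.14, -0.26 and -0.48 at IC50, IC90 and max, and between IC90 and max 19 of the 65 were lower. Dedifferentiated state genes had -0.47, -0.36 and -0.02, and 6 of the 20 were higher at max than at IC90 and 1 lower. Pigmentation genes had 0.44, 0.48 and 0.45, with 4 of 20 higher at max than at IC90. Cholesterol synthesis genes had 0.38, 0.31 and 0.44, and FOXO genes 0.25, 0.33 and 0.47, with 9 of 30 higher and 2 lower at max.

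The compounds were compared at the level each label calls IC90. Between GDC0941 and BEZ235 at IC90, 5100 genes differed (43.0%), 2376 higher (20.0%) and 2724 lower (23.0%) with GDC0941, and 146 differed by 2-fold or more. The 39-array fit called 6137. Cholesterol synthesis genes were among those that differed: 14 of 17 were higher with GDC0941 than with BEZ235 and 1 lower, with a median difference of 0.59, and against DMSO their medians were 0.31 with GDC0941 and -0.35 with BEZ235. HMGCS1 was 8.71, 8.61, 8.83 and 8.66 with BEZ235, below the DMSO arrays, and 1.68 ± 0.05 higher with GDC0941 (SE, limma adjusted p = 4.2e-24). SQLE was 7.87, 7.88, 8.01 and 7.85 with BEZ235, a difference of 1.30. STARD4, of the cholesterol control, uptake and export group, was 5.49, 5.63, 5.57 and 5.38 with BEZ235, a difference of 2.11. Of the 11 tested genes of that group, 4 were higher and 2 lower with GDC0941, with a median difference of -0.03. All 3 genes lay above the DMSO arrays with GDC0941 and below them with BEZ235.

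Other differences lay outside the cholesterol groups. TUBA1A was 1.86 higher with GDC0941 than with BEZ235. Of 13 tubulins, 9 were higher and 1 lower, beside 20.0% and 23.0% of all tested genes. FGFBP3, a carrier of fibroblast growth factors, was higher by 1.96 and MFSD2A, a lipid transporter, by 2.06. PIK3R3 was higher by 2.38, on the brightest of its 2 disagreeing probe sets. DHRS3 was lower with GDC0941 than with BEZ235 (-1.65 ± 0.13 SE, limma adjusted p = 6.2e-13), whose arrays read 8.74, 8.84, 8.70 and 8.89. BCAN (-1.64), ZNF300P1 (-1.54), A2M (-1.50), DACT1 (-1.44) and MYOF (-1.41) were lower too. A2M was 8.81, 9.05, 8.91 and 8.79 with BEZ235 and 7.39, 7.35, 7.48 and 7.35 with GDC0941. ASNS differed by 0.03 ± 0.10 and TYR by 0.08 ± 0.07 (SE) between the compounds, and neither was called, which does not show that they were equal.

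**Figure D5:**
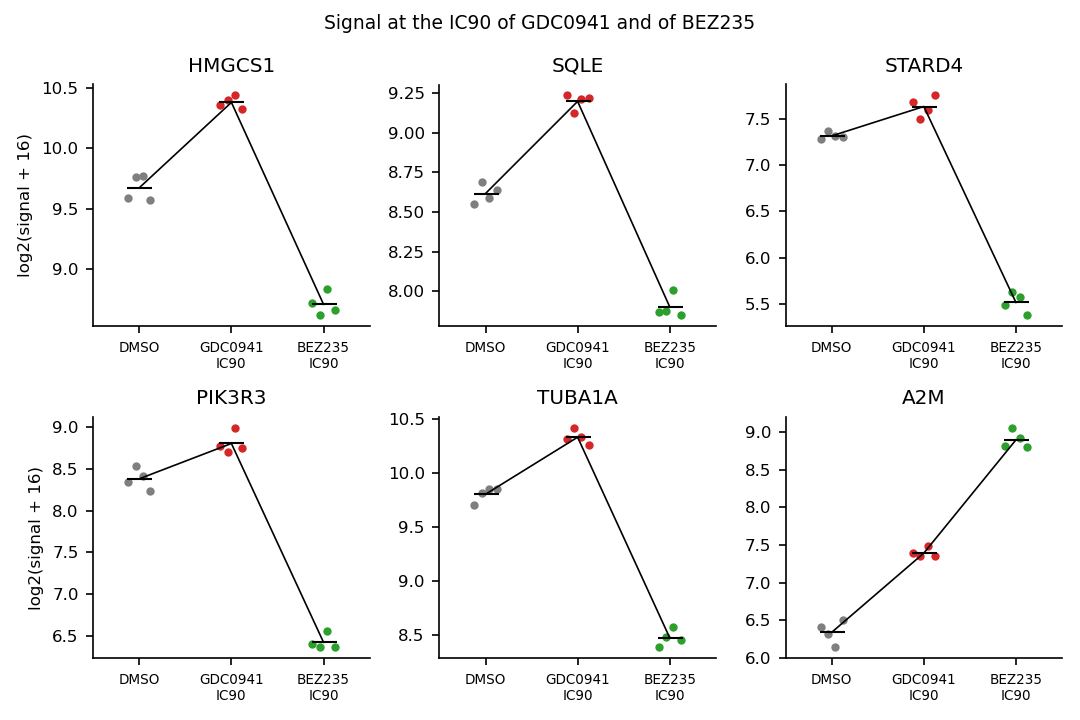
Log2(signal + 16) of 6 genes in DMSO and at the IC90 of GDC0941 and of BEZ235, 1 point per array (n = 4 each), with a line through the group means. HMGCS1, SQLE, STARD4, PIK3R3 and TUBA1A are above DMSO with GDC0941 and below it with BEZ235, and A2M is above DMSO with both and highest with BEZ235.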

How the data were processed

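RNA level was measured on 40 1-colour arrays of 54675 probe sets each, from 50 ng of total RNA amplified with the Ovation kit, per the labels' protocols. The authors deposited linear intensity values per probe set, computed with MAS5 per the submitters' processing notes (its version is not given in the sources used here), and a check of the values found the same trimmed mean of 150 on every array, without the highest and lowest 2%. Arrays have no read depth, so their number limits the precision. Gene names came from the platform annotation: 41097 probe sets name 1 symbol, 1801 several and 11777 none, of which the latter groups and the controls were left out. The brightest probe set stood for each of 19775 genes, and those whose mean signal passed the 40th percentile, 11865 in number, were tested (lowest mean intensity 13.56). Values were taken as log2(intensity + 16), with no further normalization. The fit was limma 3.58.1 (R 4.3.3) with 10 group means over 40 arrays, 30 residual degrees of freedom and a mean-variance trend, with Benjamini-Hochberg adjustment. It was tested on simulated data.

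The gene groups are 42 lists of 1038 genes, of which 952 were named on the array and 890 tested; the members and lists were chosen with earlier results of these data known. The text names the 15 largest changes in each direction against DMSO and the 6 in each other comparison, among called genes whose groups did not overlap and whose symbols are not placeholders. In each list it names up to 8 called members of largest change and any member as a value that was not called. ATG3, COL3A1, CTSL, FOXF2, FOXO1, GLA, NOP16, NT5E, TEAD3, TYRP1 and WWTR1 were named outside this rule after their values were seen. Promoters came from the RefSeq table of GRCh38.p14, which holds 27305 genes, 9780 of them among the tested ones. The alternatives were pseudocounts of 1 and 64, no filter, a filter at the 60th percentile, averaged probe sets, quantile normalization, a fit of only the groups compared, a fit of 39 arrays, a replicate block and leaving out each array in turn.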

Additional observations from a re-analysis of the deposited data

Results flagged for a closer look

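In 35 of 524 groups of 4 arrays, over the named genes in DMSO and at IC90, 1 array stood apart from the other 3: its gap to the nearest value, as a share of the range of the group, passed the critical value of Dixon's test. That is 6.68% of groups, where chance gives about 5%. The shares below are given by array, with no explanation of any of them.

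DMSO replicate 1 lay above the others for ACSS2 (0.839), and below the others for MCM5 (0.962). DMSO replicate 2 lay above the others for DEPTOR (0.869), ENPP2 (0.976), HLA-DMA (0.869), PSMD12 (0.936) and TXNIP (0.968), and below the others for GLIPR1 (0.911), HK1 (0.926), NDRG1 (0.933), NPC2 (0.931), PKM (0.854) and SLC7A11 (0.831). DMSO replicate 3 lay above the others for CCL2 (0.864), and below the others for CENPE (0.923). DMSO replicate 4 lay above the others for ICAM1 (0.852) and MCL1 (0.903), and below the others for MYLIP (0.908) and TEAD3 (0.904).

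IC90 replicate 1 lay above the others for GINS4 (0.849) and HBP1 (0.837), and below the others for BAX (0.869), MTOR (0.93) and YAP1 (0.839). IC90 replicate 2 lay above the others for CDKN1B (0.884), IL7R (0.903) and VIM (0.859), and below the others for ATG14 (0.844) and CARS1 (0.932). IC90 replicate 3 lay above the others for STK32A (0.949) and TEAD1 (0.845), and below the others for IGFBP3 (0.933), RBL2 (0.843) and SREBF1 (0.894). IC90 replicate 4 lay below the others for PDGFRA (1.0).

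DEPTOR was at 5.61 in DMSO replicate 2 and at most 4.75 in the other DMSO arrays, and IL7R at 5.74 in IC90 replicate 2 and at most 5.17 in the other IC90 arrays. For STK32A, IC90 replicate 3 read 7.40, with the next array at 7.13, and for MYLIP, DMSO replicate 4 read 9.25, with the next at 9.60. For PDGFRA and TXNIP the other 3 values nearly coincided, so a small gap took most of the range.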

How the results depend on the processing

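Against DMSO, the counts of 2991 called, 1808 higher and 1183 lower genes stayed within 1.5 times under each alternative run, with 2472 to 2697 called, 1509 to 1642 higher and 955 to 1080 lower when an array was left out. From IC50 to IC90 the 262 called genes became 446 with only the groups compared (214 lower), 735 with 39 arrays (399 higher, 336 lower), and 145 to 253 without single arrays (81 to 159 higher, 57 to 94 lower). From IC90 to max the 1248 became 2199 with 39 arrays (1172 higher, 1027 lower) and 807 to 1143 without single arrays (405 to 562 and 399 to 581), and 398 were higher with the 60th percentile filter. Against BEZ235 the 5100 became 4559 to 4726 without single arrays (2160 to 2228 higher, 2389 to 2510 lower), and 1734 were lower with that filter, which tests fewer genes. For the other changes the cause was not tested.

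Replicate numbers are not stated to pair the arrays. The deviations of same-numbered DMSO and IC90 arrays correlated at -0.099, -0.226, 0.029 and -0.031, and no number had its best partner in its own. With so few arrays, each centred on its group mean, this check cannot show that pairing was absent. With the replicate block, limma called 2935 genes against DMSO, 1779 higher and 1156 lower. Of the 262 named genes, 50 changed their side of the threshold or their direction in some alternative. With probe sets averaged, BCL2L11 was at -0.09, WWTR1 at -0.01 and HK2 at 0.25 against DMSO, each opposite in sign to its brightest probe set, and the share of rises among called genes was 54.2% in place of 60.4%. Dim genes are limited by signal over background: fold changes are understated on the log2(intensity + 16) scale, and the chemokine and dedifferentiated lists lean on dim members.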
